A study of Mus musculus with 45 samples.

Results

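The 5 chemokine genes Ccl2, Ccl7, Ccl8, Ccl11 and Ccl12 were followed through 3 tables of RNA sequencing counts, of which they are 5 of the 56039 genes listed. They were chosen by name, as neighbours of a gene cluster on mouse chromosome 11 that are commonly grouped as ligands of the monocyte receptor CCR2. Earlier results of these data were known at that choice. The paper reports Ccl2, Ccl12 and Ccl7 as the most significant genes raised by TNF. The shares of all genes called are therefore given as a frame and not as a test of the members. All 5 were listed in each of the 3 tables. The counts measure mRNA and not receptor binding, and in the mouse Ccl11, also called eotaxin, is best known as a ligand of CCR3, and Ccl8 has been described as a ligand of CCR8.

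The study sequenced 45 samples of C57BL/6 mice in 7 groups. Slice microglia were sorted, as live CD11b-positive cells of intermediate CD45, from coronal slices of neonatal brain that had spent 2 weeks in culture and then 24 h in medium alone (9 libraries), with the cytokine TNF (tumor necrosis factor) at 50 ng/mL (11 libraries) or with the colony-stimulating factor GM-CSF at 20 ng/mL (9 libraries), and each library pooled 2 to 3 slices. Adult microglia were sorted by the same gate from female mice of 10 to 15 weeks, 24 h after an intraperitoneal injection of 1 mg/kg of lipopolysaccharide (LPS, a bacterial cell wall component, 4 libraries) or of phosphate-buffered saline (PBS, 4 libraries). Whole brain tissue, also at 10 to 15 weeks, was taken 24 h after 1 mg/kg of LPS (4 libraries) or from untreated mice (4 libraries), so the brain controls were untreated where those of adult microglia had received PBS. The titles of all adult microglia and brain samples carry WT, read here as wild type. For the in vivo LPS experiments the paper gives female mice. The cytokines acted on the whole slice and all its cells, and microglia were sorted from it afterwards.

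Chemokines are small secreted proteins that attract white blood cells along a gradient. CCR2 is carried by inflammatory monocytes, and its ligand Ccl2, or monocyte chemoattractant protein, is made by activated macrophages, microglia and astrocytes and draws these monocytes into inflamed tissue. Ccl7 and Ccl12 are close relatives of Ccl2 that also act on CCR2, and the genes of the cluster are known targets of NF-kappa B, the transcription factor that TNF and LPS both activate.

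The members lie in a row on the plus strand of chromosome 11 (GRCm38), each as a protein-coding gene of 3 exons. In this order they are Ccl2 (ENSMUSG00000035385, 82035571 to 82037453), Ccl7 (ENSMUSG00000035373, 82045712 to 82047525), Ccl11 (ENSMUSG00000020676, 82057823 to 82062955), Ccl12 (ENSMUSG00000035352, 82101845 to 82103400) and Ccl8 (ENSMUSG00000009185, 82115185 to 82116799). The gaps between them are 8258, 10297, 38889 and 11784 bases, so the widest gap parts Ccl11 from Ccl12. Their transcripts measure 813, 801, 1082, 537 and 511 bases in the same order, and these lengths were used wherever 2 members were compared in level. Ccl2 has the longest coding sequence, 444 bases against 291 to 312 in the others.

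Related genes can share reads, so the coding sequences were aligned. Over the aligned bases, identity ran from 58.4% for Ccl2 and Ccl8 to 67.7% for Ccl12 and Ccl8. The longest run of bases common to the transcripts of any pair was 23 bases, between Ccl2 and Ccl7, and no run of 50 bases, the shorter of the read lengths used, was shared with a transcript of any other gene in the annotation. The most alike stretch of 75 bases, the read length of the slice libraries, lies in exon 2 of every member and is shown to make this separation visible. It spans chr11:82036524-82036598 in Ccl2, chr11:82046553-82046627 in Ccl7, chr11:82061714-82061788 in Ccl11, chr11:82102652-82102726 in Ccl12 and chr11:82116074-82116148 in Ccl8 (GENCODE M21 on GRCm38, plus strand, 5′ to 3′), and capitals mark bases that differ from Ccl2.
Ccl2: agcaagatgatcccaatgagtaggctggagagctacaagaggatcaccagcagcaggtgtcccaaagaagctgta
Ccl7: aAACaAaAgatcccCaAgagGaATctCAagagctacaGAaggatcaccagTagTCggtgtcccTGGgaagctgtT
Ccl11: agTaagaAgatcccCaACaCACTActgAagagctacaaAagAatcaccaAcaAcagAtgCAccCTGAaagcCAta
Ccl12: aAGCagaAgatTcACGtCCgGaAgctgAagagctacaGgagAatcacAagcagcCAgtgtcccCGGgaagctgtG
Ccl8: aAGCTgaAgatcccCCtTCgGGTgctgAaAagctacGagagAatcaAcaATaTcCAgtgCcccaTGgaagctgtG
Even here the members differed from Ccl2 at 21 to 26 of the 75 bases, and the closest pairs, Ccl7 with Ccl12 and Ccl12 with Ccl8, differed at 18.

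Promoter sequence was at hand for Ccl12 and Ccl8 (RefSeq, GRCm38.p6), the members with the highest and one of the lowest levels, which lie side by side. The 250 bases before the start of each are chr11:82101595-82101844 for Ccl12 and chr11:82114935-82115184 for Ccl8, both on the plus strand, with matches to the searched motifs, on either strand, in capitals.
Ccl12: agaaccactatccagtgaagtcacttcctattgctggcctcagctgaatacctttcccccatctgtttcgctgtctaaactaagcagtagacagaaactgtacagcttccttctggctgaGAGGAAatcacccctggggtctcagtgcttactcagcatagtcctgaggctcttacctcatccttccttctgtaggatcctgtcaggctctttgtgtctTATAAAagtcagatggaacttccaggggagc
Ccl8: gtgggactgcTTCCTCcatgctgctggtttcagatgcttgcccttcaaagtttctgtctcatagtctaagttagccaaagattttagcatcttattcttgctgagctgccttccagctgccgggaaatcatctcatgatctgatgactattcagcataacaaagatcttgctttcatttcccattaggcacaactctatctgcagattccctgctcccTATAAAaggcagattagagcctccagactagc
Each holds 1 TATAAA, the TATA box, starting 31 bases before the start of Ccl12 and 32 bases before that of Ccl8, which 12.4% of the 32851 promoter windows of this length hold on either strand. Each also holds 1 match to GAGGAA, a core of sites for the myeloid factor PU.1, found in 23.3% of all windows. A kappa B-like motif (3 G, any 5 bases, 2 C, in 45.8% of windows), TGANTCA (AP-1, 6.75%), TTCNNNGAA (STAT, 7.02%) and CCAAT (33.9%) had 0 matches in both windows, which says only that these letters are not in these bases. The 2 windows were identical at 56.4% of 234 aligned bases.

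Levels are given as CPM, the read count relative to the library total scaled with the TMM factors of edgeR, with the SD over libraries. The slice libraries held 5973364 to 9165485 counts each, the adult microglia libraries 11391564 to 14216005 and the brain libraries 8199863 to 10368578. The 6 microglia markers used here, among them Cx3cr1, P2ry12 and Tmem119, were detected in every group, at a summed 16413 to 23438 CPM in medium, 9005 to 11873 with TNF, 11505 to 13269 with GM-CSF, 50658 to 56741 with PBS and 35597 to 39802 with LPS, against 205 to 344 CPM in brain tissue. The paper reports lower P2ry12 with TNF and with GM-CSF, so these sums do not measure the purity of the sorted cells alone. In samples of many cells, fewer cells of a type and less RNA per cell cannot be told apart.

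**Figure D1:**
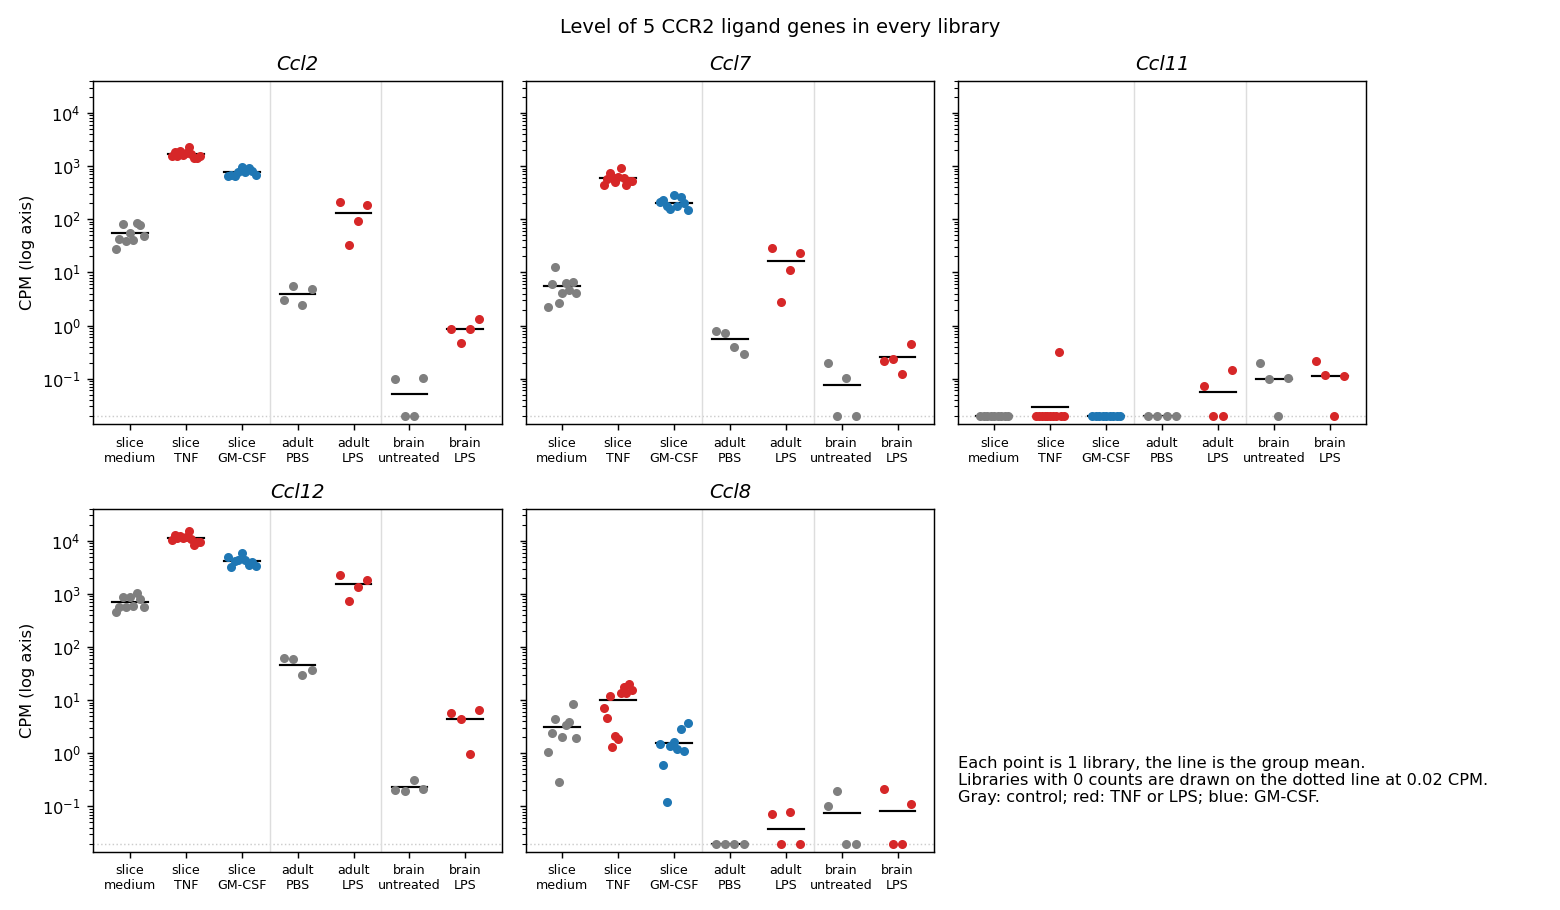
Level of each member in CPM (log axis) in every library of the 7 groups, with a line at the group mean and libraries without a read drawn at 0.02 CPM. Ccl2, Ccl7 and Ccl12 sit higher with TNF and GM-CSF than in any medium library, Ccl8 overlaps between the slice groups, and Ccl11 lies at 0 in nearly every microglia library.

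In slice microglia in medium, Ccl12 was the most abundant member and Ccl11 was not detected. Ccl12 ranged from 456 to 1016 CPM with a median of 581, Ccl2 from 27.6 to 84.8 with a median of 49.4, and Ccl7 from 2.28 to 12.4 with a median of 4.71. Ccl8 ranged from 0.289 to 8.27 CPM with a median of 2.38, on 2 to 59 reads a library. Ccl11 had 0 reads in all 9 libraries, and 3 reads, the limit that a count of 0 allows, would be 0.325 to 0.448 CPM. Per kilobase of transcript the means were 1309 CPM for Ccl12, 68.0 for Ccl2, 6.85 for Ccl7 and 6.02 for Ccl8. Ccl12 and Ccl2 did not overlap with each other or with the members below them, whereas Ccl7 and Ccl8 overlapped and Ccl7 was the higher of them in 7 of 9 libraries.

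The first question was how TNF changed the members in slice microglia. Ccl2, Ccl7 and Ccl12 rose 15.8-fold to 106-fold, Ccl8 rose 3.21-fold, and Ccl11 stayed at or near 0. Ccl7, the lowest of these 3 in medium, had the largest change, and Ccl12 remained the most abundant. The edgeR test called 4 of the 4 members that passed its filter on low counts higher (adjusted p under 0.05 and a fold change over 1.5), where 9.10% of all 11313 genes tested were called higher. Ccl11 did not pass that filter.

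With TNF, Ccl2 ranged from 1437 to 2310 CPM with a median of 1607 over the 11 libraries. The mean was 55.3 ± 20.7 CPM (SD) over the 9 medium libraries and 1704 ± 262 with TNF, so Ccl2 rose by 4.95 on the log2 scale (SE 0.17, edgeR adjusted p 1.8e-21). The lowest TNF library was above the highest medium library. Ccl7 ranged from 435 to 927 CPM with a median of 573, and rose by 6.73 on the log2 scale (SE 0.23, edgeR adjusted p 7.5e-21). Its groups did not overlap either. Ccl12 ranged from 8476 to 15100 CPM with a median of 11041, and rose by 3.99 on the log2 scale (SE 0.14, edgeR adjusted p 1.8e-21), again without overlap. The share of all genes whose groups did not overlap is not given, here or in the comparisons below. Each TNF library held 52943 to 107070 reads of Ccl12. Beside these changes the 5 neutrophil markers (S100a8, S100a9, Ly6g, Retnlg and Ngp) summed to 0.134 to 13.98 CPM in medium, 2.11 to 113 with TNF and 1.08 to 42.8 with GM-CSF. The 5 monocyte markers (Ccr2, Ly6c2, Plac8, Chil3 and Vcan) summed to 0 to 4.43, 0.179 to 5.56 and 0 to 7.88 CPM in the same order. Ly6g was at 0 in every slice library. Ngp and Ly6c2 were at 0 in all medium libraries but were detected with TNF and with GM-CSF. Plac8 was at 0 in all medium and GM-CSF libraries but was detected with TNF. The neutrophil and monocyte sums lay below every value of Ccl12 and Ccl2 in the same group but overlapped with the levels of Ccl8. In medium both sums overlapped with Ccl7 too. Border macrophage markers (named below) summed to 290 to 698 CPM in medium, 305 to 542 with TNF and 301 to 862 with GM-CSF. Astrocyte markers (named below) summed to 33.1 to 74.6, 12.8 to 82.2 and 18.2 to 70.1 CPM. In medium the border macrophage sum lay above every value of Ccl2, and the astrocyte sum overlapped with Ccl2. The part of all these cells in the changes was not tested.

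Ccl8 behaved less evenly. With TNF it ranged from 1.29 to 20.2 CPM with a median of 11.8, on 9 to 119 reads, and overlapped with medium. It rose by 1.68 on the log2 scale (SE 0.49, edgeR adjusted p 0.0059). The slice titles carry a code (1A, 1B, 2A or 2B) whose meaning the labels do not give, and Ccl8 with TNF differed between codes. With TNF, the 3 libraries of code 1B held 1.29 to 2.11 CPM, the 3 of 1A 4.58 to 11.8, the 2 of 2A 13.7 to 17.3 and the 3 of 2B 13.7 to 20.2. In medium the only 1B library was also the lowest, at 0.289 CPM against 1.07 to 8.27 in the other codes, and with GM-CSF the 2 libraries of code 1B held 0.123 and 1.37 CPM, the lowest and the median of that group.

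**Figure D2:**
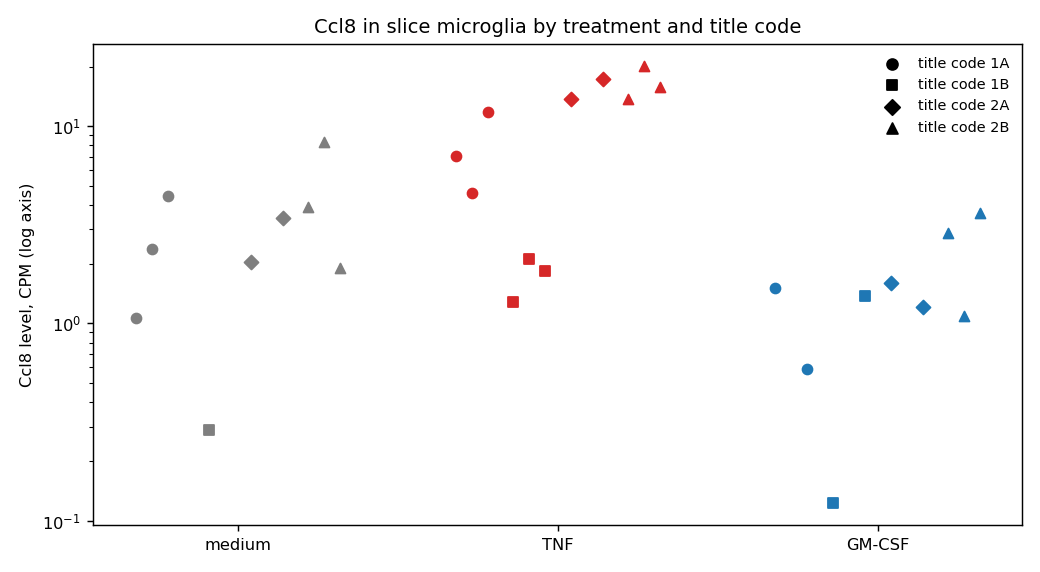
Ccl8 level in CPM (log axis) in each slice library, by treatment and by the code in the sample title (symbol). The squares of code 1B hold the lowest library of each treatment, and the 5 TNF libraries of codes 2A and 2B lie at 13.7 CPM or above.

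Within codes 2A and 2B alone the log2 change of Ccl8 with TNF was 2.04, and within codes 1A and 1B alone it was 1.22 and no longer called (edgeR adjusted p 0.23). The difference between these changes, a test chosen after the data were seen, was 0.83 (SE 0.83, unadjusted p 0.32, edgeR adjusted p 0.92) and was not called. Markers of other cells are given beside these values, for some of the marker lists only. With TNF the summed oligodendrocyte markers, such as Mbp and Mog, were 51.3 to 76.4 CPM in 1B, 73.2 to 110 in 1A and 122 to 151 in 2A and 95.005 to 160 in 2B, the lowest of which lies within the 1A range, and the summed astrocyte markers (Gfap, Aqp4, Slc1a2, Gja1 and Aldoc) were 12.8 to 29.1 CPM in 1B, 34.3 to 39.2 in 1A and 43.2 to 82.2 in 2A and 2B. The 6 border macrophage markers, genes of macrophages of the meninges and vessels such as Mrc1 and Cd163, summed to 310 to 386 CPM in 1B, 305 to 529 in 1A and 365 to 542 in 2A and 2B, so their ranges overlapped between codes. No marker of these 3 lists was at 0 in all libraries of a slice group, and their part in the Ccl8 values was not tested. The summed endothelial markers with TNF did not run in the order of Ccl8. They were 5.40 to 19.0 CPM in 1B, 10.2 to 17.3 in 1A, 8.74 to 9.73 in 2A and 6.36 to 8.53 in 2B.

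Ccl11 had 0 reads in 10 of the 11 TNF libraries and 2 reads in the other, or 0.318 CPM, which is under the 3-read limit of that group (0.362 to 0.538 CPM). A change of Ccl11 with TNF was therefore not detectable at this depth.

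The same medium libraries served as controls for GM-CSF, so its changes and those with TNF are not independent. Ccl2, Ccl7 and Ccl12 rose with GM-CSF too, and Ccl8 was not called. Ccl2 ranged from 644 to 947 CPM with a median of 783, a mean of 769 ± 108 (SD, n = 9), and rose by 3.80 on the log2 scale (SE 0.16, edgeR adjusted p 6.7e-18). Ccl7 ranged from 148 to 286 CPM with a median of 204 (mean 205 ± 47.0, n = 9), and rose by 5.20 on the log2 scale (SE 0.23, edgeR adjusted p 2.1e-17). Ccl12 ranged from 3270 to 5872 CPM with a median of 4097 (mean 4182 ± 831, n = 9), and rose by 2.57 on the log2 scale (SE 0.14, edgeR adjusted p 5.5e-16). Every GM-CSF library was above every medium library for these 3 genes. The test called 3 of the 4 members tested higher, where 4.84% of all genes were.

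Ccl8 ranged from 0.123 to 3.64 CPM with GM-CSF, on 1 to 25 reads, with a median of 1.37 against 2.38 in medium. The groups overlapped, and the log2 difference of -0.98 had a 95% interval of -2.02 to 0.05 (edgeR adjusted p 0.19). Ccl11 had 0 reads in all 9 GM-CSF libraries, where 3 reads would be 0.325 to 0.458 CPM.

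**Figure D3:**
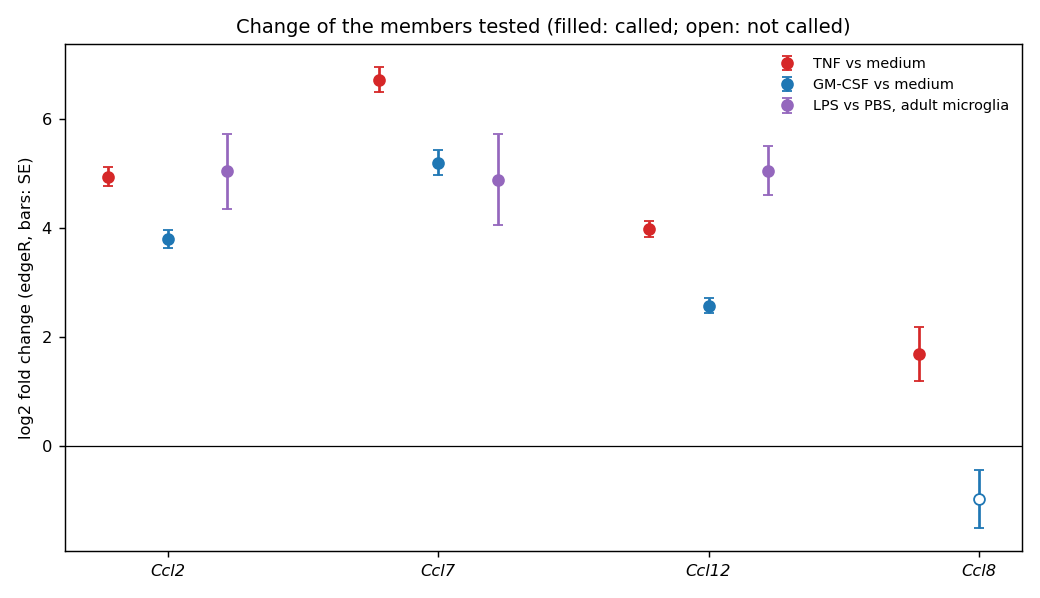
Log2 fold change of each tested member with its SE for TNF and GM-CSF against medium in slice microglia and for LPS against PBS in adult microglia. Filled symbols were called by edgeR. Ccl7 moved most with both cytokines, and the open symbol is Ccl8 with GM-CSF.

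Set against each other directly, the cytokines differed in all 4 members tested, each of them higher with TNF (8.25% of all genes were called higher with TNF in this contrast). Ccl2 was 2.22-fold higher with TNF (log2 1.15, SE 0.14, edgeR adjusted p 5.5e-08), Ccl7 2.88-fold (log2 1.53, SE 0.17, edgeR adjusted p 1.3e-08) and Ccl12 2.66-fold (log2 1.41, SE 0.13, edgeR adjusted p 4.4e-11). The lowest TNF library exceeded the highest GM-CSF library for these 3 members, and how many of all genes were separated so is not given. Ccl8 was 6.35-fold higher with TNF (log2 2.67, SE 0.52, edgeR adjusted p 0.00010) and its groups overlapped, the TNF libraries of code 1B lying among those with GM-CSF. The doses, 50 and 20 ng/mL, were not matched.

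In adult microglia the question was how LPS given to the animal changed the members. Ccl2, Ccl7 and Ccl12 rose 29.7-fold to 33.4-fold from low levels, and Ccl8 and Ccl11 were hardly detected in either group. Ccl12, at 1561 ± 677 CPM (SD, n = 4) with LPS, was again the most abundant. All 3 members that passed the filter were called higher, where 14.4% of 12987 genes were called higher. Ccl7 had 4 to 11 reads in the PBS libraries and 33 to 399 with LPS, so the filter kept it through the group where it was high.

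Ccl2 was 3.02, 5.46, 2.42 and 4.83 CPM in PBS replicates 1 to 4, and 208, 32.6, 92.6 and 189 CPM in LPS replicates 1 to 4. It rose by 5.04 on the log2 scale (SE 0.70, edgeR adjusted p 0.00077). Each LPS library was well above each PBS library, and LPS replicate 2 was the lowest of its group. Ccl7 was 0.790, 0.719, 0.403 and 0.288 CPM with PBS and 29.1, 2.83, 11.1 and 23.6 with LPS, and rose by 4.89 on the log2 scale (SE 0.84, edgeR adjusted p 0.0019). Ccl12 was 60.9, 58.3, 30.2 and 37.4 CPM with PBS and 2308, 725, 1367 and 1843 with LPS, and rose by 5.06 on the log2 scale (SE 0.46, edgeR adjusted p 9.2e-05). The same order of LPS replicates, 1 above 4 above 3 above 2, held for all 3 genes. The members were still called without LPS replicate 2 or any other single library, with log2 changes of 4.72 to 5.36 for Ccl2, 4.47 to 5.24 for Ccl7 and 4.80 to 5.30 for Ccl12.

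Ccl8 had 0 reads in the 4 PBS libraries and 1, 0, 1 and 0 reads in the LPS libraries, and Ccl11 had 0 reads with PBS and 1, 0, 0 and 2 with LPS. All of these are at or under 3 reads, or 0.215 to 0.257 CPM, so no fold change is given. In medium slices Ccl8 had 2 to 59 reads in shallower libraries, but the slice and adult tables were made from different runs and were not tested against each other. Markers of other white blood cells were also summed. The 5 monocyte markers summed to 11.1 to 15.4 CPM with PBS and 4.22 to 6.78 with LPS, and the 5 neutrophil markers to 27.8 to 61.4 and 1.61 to 7.15 CPM. The border macrophage markers went the other way, from 10.1 to 15.6 CPM with PBS to 27.3 to 44.5 with LPS, and LPS replicate 2, the lowest for the members, was also the lowest there. Of the defining genes of neutrophils Ly6g and Retnlg were at 0 in all LPS libraries, and the part of these cells in the member values was not tested.

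Whole brain tissue held the members at a few reads per library. In untreated brain the sum over the 4 libraries was 2 reads for Ccl2, 3 for Ccl7, 3 for Ccl8, 4 for Ccl11 and 9 for Ccl12, and after LPS it was 31, 9, 3, 4 and 157. No member passed the low-count filter, and 2.63% of the 15083 genes that did were called higher. Without the filter 2 of 5 members were called higher, Ccl2 and Ccl12, where 1.76% of 26560 genes were.

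Ccl12 was 0.201, 0.194, 0.310 and 0.209 CPM in untreated replicates 1 to 4 and 5.70, 4.36, 0.967 and 6.51 with LPS. Fitted without the filter, the change was 4.19 on the log2 scale (SE 0.66, edgeR adjusted p 0.0044). LPS replicate 3 was far below the other LPS libraries and still above all untreated ones. The same library had the lowest summed microglia markers, 205 CPM against 316 to 344 in the other LPS libraries, and the part of this in its Ccl12 value was not tested. Ccl2 was 0.101, 0, 0 and 0.104 CPM without treatment and 0.844, 0.472, 0.846 and 1.35 with LPS, an unfiltered log2 change of 3.79 (SE 0.79, edgeR adjusted p 0.00037) that depends on the prior count because of the zeros. An exact two-sided permutation test over the 8 libraries, chosen after the data were seen, gave p = 0.029 for both genes, the smallest that 4 against 4 allows, and 0.071 after adjustment over the 5 members.

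Ccl7 in brain tissue was 0.201, 0, 0.103 and 0 CPM without treatment and 0.211, 0.236, 0.121 and 0.449 with LPS, and the groups overlapped (unfiltered log2 1.58, SE 1.02, edgeR adjusted p 0.50). Ccl8 and Ccl11 had 0 to 2 reads in every brain library of both groups, and a difference was not detectable at this depth. Whether the LPS change differed between adult microglia and brain tissue was tested as an interaction, in which tissue, library kit and control differ together. The log2 difference was 1.18 for Ccl2 (SE 5.73, edgeR adjusted p 0.98), 3.26 for Ccl7 (SE 2.81, adjusted p 0.44) and 0.83 for Ccl12 (SE 2.18, adjusted p 0.88), so edgeR called 0 of 3, and 0 had an unadjusted p under 0.05, where 19.7% of 16676 genes were called. These members entered the joint fit through their adult microglia libraries, since no member passed the filter in brain tissue. The edgeR 95% intervals were -10.05 to 12.41, -2.24 to 8.76 and -3.45 to 5.10, too wide to tell whether the changes differed. With DESeq2 the 95% intervals were -1.46 to 3.25, 0.44 to 5.81 and -0.90 to 2.41 (DESeq2 adjusted p 0.67, 0.066 and 0.59), and 1 of 3, Ccl7, had an unadjusted p under 0.05 (DESeq2 p 0.022).

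Ratios between members were taken within each library, where they do not depend on library scaling, as log2 ratios of counts per kilobase with 0.5 read added. They were tested by exact two-sided permutation over libraries only where both genes had at least 30 reads summed in each group, which left 11 tests, and 8 of them had an adjusted p under 0.05. No ratio with Ccl11 could be tested.

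The ratio of Ccl2 to Ccl7, its nearest neighbour, fell with both cytokines. In medium Ccl2 was 6.19 to 17.5 times Ccl7 (mean log2 ratio 3.37 ± 0.55, SD, n = 9), with TNF 2.05 to 3.50 times (1.52 ± 0.22, n = 11) and with GM-CSF 2.98 to 5.09 times (1.90 ± 0.27, n = 9). Neither cytokine overlapped with medium. The difference in log2 ratio was -1.85 for TNF (SE 0.19, permutation adjusted p 6.5e-05) and -1.47 for GM-CSF (SE 0.20, permutation adjusted p 0.00011). TNF and GM-CSF differed by -0.38 (SE 0.11, permutation adjusted p 0.0029) with overlap. In adult microglia the ratio was 3.64 to 14.8 with PBS and 7.02 to 11.2 with LPS (log2 difference 0.32, SE 0.45, exact permutation adjusted p 0.53), on 4 to 11 reads of Ccl7 in the PBS libraries.

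The ratio of Ccl2 to Ccl12 rose with both cytokines. Per kilobase Ccl2 was at 0.0400 to 0.0649 of Ccl12 in medium, 0.0907 to 0.112 with TNF and 0.0897 to 0.174 with GM-CSF. The log2 differences from medium were 1.01 (SE 0.09, permutation adjusted p 6.5e-05) and 1.28 (SE 0.12, permutation adjusted p 0.00011), without overlap. The TNF libraries were the most alike of the 3 slice groups, with an SD of 0.09 on the log2 scale against 0.25 in medium and 0.28 with GM-CSF. With LPS the ratio was 0.0298 to 0.0678 against 0.0330 to 0.0858 with PBS, and the groups overlapped (log2 difference -0.20, SE 0.39, exact permutation adjusted p 0.60). As a share of the length-scaled level of all 5 members, Ccl12 held 94.3% ± 1.09 (SD) over the 9 medium, 87.9% ± 0.637 over the 11 TNF and 86.4% ± 2.36 over the 9 GM-CSF libraries, and 93.8% ± 1.79 (n = 4) with PBS and 94.7% ± 1.76 (n = 4) with LPS.

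**Figure D4:**
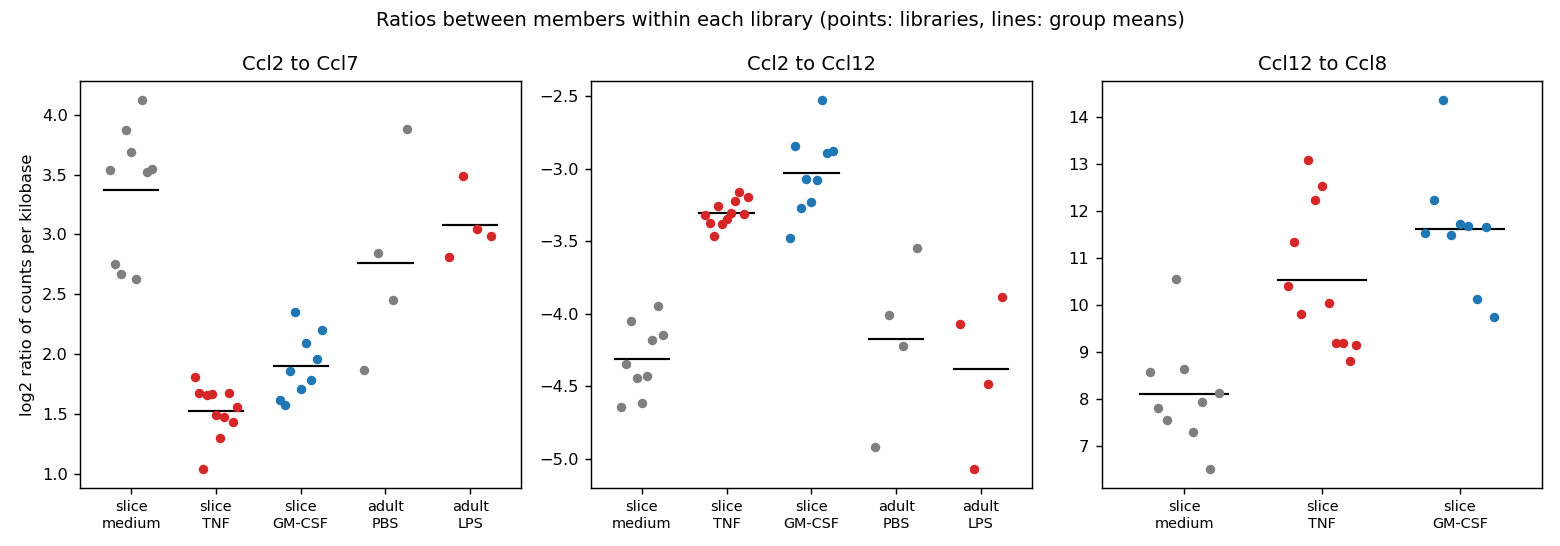
Log2 ratio of counts per kilobase between pairs of members in each library, with a line at the group mean (brain tissue not drawn, and Ccl12 to Ccl8 drawn for slices only). The medium libraries stand apart from both cytokine groups in the first 2 panels, whereas adult PBS and LPS libraries overlap.

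Ccl12 and Ccl8 are also neighbours, and their ratio rose with both cytokines. Per kilobase Ccl12 was 90.4 to 1497 times Ccl8 in medium, 444 to 8678 times with TNF and 859 to 21176 times with GM-CSF. The log2 differences from medium were 2.42 (SE 0.59, permutation adjusted p 0.0014) and 3.51 (SE 0.58, permutation adjusted p 0.00027), and the groups overlapped in both. TNF and GM-CSF differed by -1.09 (SE 0.64, permutation adjusted p 0.13). This ratio varied more than the others within a treatment, with SDs of 1.12, 1.53 and 1.31 on the log2 scale in medium, TNF and GM-CSF.

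Libraries of 1 treatment were then compared with each other. Over the 11 TNF libraries Ccl2 and Ccl12 rose and fell together (Pearson r = 0.93, permutation p 6.0e-05, adjusted 0.00054; Spearman rho = 0.85, permutation p 0.0017, adjusted 0.0091). Over the 9 medium libraries the same pair had r = 0.92 (exact permutation p 0.00064, adjusted 0.0029) and rho = 0.90 (exact permutation p 0.0020, adjusted 0.0091), and over the 9 GM-CSF libraries r = 0.33 (exact permutation p 0.39, adjusted 0.44) and rho = 0.20 (exact permutation p 0.61, adjusted 0.68). Ccl7 and Ccl12 had r = 0.79 with TNF (permutation p 0.0039, adjusted 0.012; rho = 0.74, p 0.013, adjusted 0.038), 0.52 in medium and 0.29 with GM-CSF. Ccl2 and Ccl7 had r = 0.74 with TNF (permutation p 0.010, adjusted 0.023; rho = 0.58, p 0.066, adjusted 0.15), 0.67 in medium and 0.58 with GM-CSF. All 9 relations were positive with all libraries, 4 had an adjusted Pearson p under 0.05 and 3 an adjusted Spearman p, and that these correlations differ between treatments was not tested.

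Without the 2 libraries farthest from the median of the first gene, only Ccl2 with Ccl12 over TNF libraries kept an adjusted p under 0.05 for Pearson (r = 0.85, exact permutation adjusted p 0.031), and 0 of 9 did for Spearman (rho = 0.75 for that pair, exact permutation adjusted p 0.20). The same pair in medium had r = 0.83 with an adjusted exact permutation p of 0.10, and for Ccl2 with Ccl7 and Ccl7 with Ccl12 over TNF libraries r was 0.42 and 0.65 with adjusted exact permutation p of 0.40 and 0.17, so these 3 calls were lost with 2 libraries fewer. With GM-CSF r turned negative, to -0.11 for Ccl2 with Ccl12 and -0.59 for Ccl7 with Ccl12, neither past the threshold. On deviations from the mean of each title code pair (1A with 1B, 2A with 2B), r of Ccl2 and Ccl12 was 0.96 with TNF and 0.90 in medium. Ccl8 and Ccl11 were left out, since they did not reach 10 reads in every library.

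**Figure D5:**
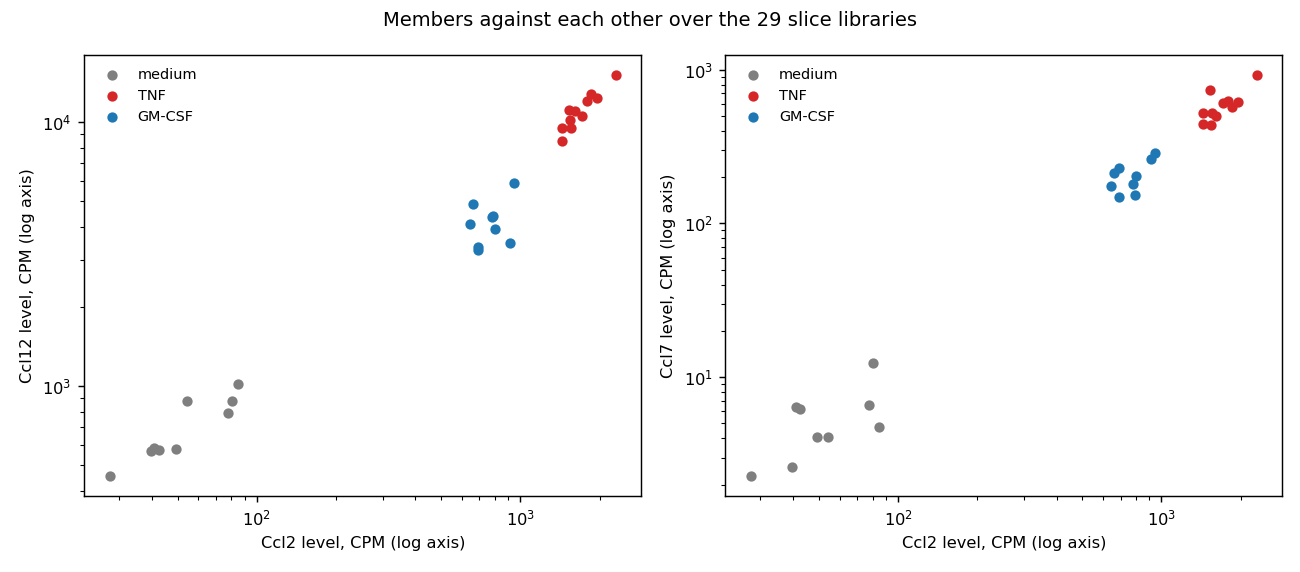
Ccl12 against Ccl2 (left) and Ccl7 against Ccl2 (right) in CPM on log axes over the 29 slice libraries, coloured by treatment. The 3 treatments form separate clusters, and within the TNF cluster libraries high for Ccl2 are high for Ccl12.

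Over all 29 slice libraries, whose 3 treatments form separate clusters, likeness to the members was ranked among 11313 genes as a description without a test. Ccl2 had r = 0.99 with Ccl7 and 0.99 with Ccl12, and Ccl8 had only 0.32 with Ccl2, 0.32 with Ccl7 and 0.36 with Ccl12. The non-members most like Ccl2 were Bcl2a1a (an inhibitor of cell death, r = 0.97, counted next to near-identical copies and so uncertain), Tagln2 (an actin-binding protein, 0.97) and Msr1 (a macrophage scavenger receptor, 0.96). Those most like Ccl7 were Tagln2 (0.98), Bcl2a1a (0.96) and Eno1 (enolase, a glycolytic enzyme, 0.96), and those most like Ccl12 were Mcemp1 (a membrane protein of myeloid cells, 0.98), Pilra (an inhibitory receptor of myeloid cells, 0.98) and Tagln2 (0.97). On deviations from the treatment means Tagln2 fell to r = 0.15 with Ccl2, whereas Ccl12 kept 0.79 with Ccl2 and Mcemp1 kept 0.69 with Ccl12.

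The lists that follow are read beside the calls over all genes, which were 1030 higher and 1323 lower of 11313 with TNF, 548 and 674 of 11313 with GM-CSF, 1872 and 1691 of 12987 with LPS in adult microglia, and 396 and 83 of 15083 in brain tissue. Ccr2, the receptor the ligands are named for, was near the floor in slices, with means of 1.11, 0.245 and 0.903 CPM in medium, TNF and GM-CSF and 0 reads in 4, 8 and 5 libraries, and was not tested there. In adult microglia Ccr2 fell from 6.47 ± 0.305 CPM (n = 4) with PBS to 3.68 ± 0.664 (n = 4) with LPS (log2 -0.81, SE 0.18, edgeR adjusted p 0.0030), and in brain tissue it stayed at 2 to 11 reads. Of 7 receptors, 3 were tested in slices. With TNF 1 rose, the atypical receptor Ccrl2 (log2 1.69, SE 0.13, edgeR adjusted p 1.0e-12), with a list median of 0.11 against -0.03 over all genes. With GM-CSF 1 rose, Ccr1 (log2 1.24, SE 0.12, edgeR adjusted p 4.7e-10), and 1 fell, Ccrl2 (log2 -0.99, SE 0.14, edgeR adjusted p 1.4e-06), with a median of 0.16 against -0.04. With LPS in adult microglia 1 of 5 tested rose, Ccr1 (log2 1.57, SE 0.11, edgeR adjusted p 8.9e-07), and 2 fell, Ccr2 and Ccr3 (the eotaxin receptor, log2 -2.38, SE 0.43, edgeR adjusted p 0.00062), with a median of -0.06 against 0.01. In brain tissue Ackr1, the decoy receptor of vessels and red cells, had a log2 change of 0.47 and was not called (SE 0.08, edgeR adjusted p 0.0010).

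Of 10 genes of signalling behind CCR2, edgeR called 0 of 10 with TNF or with GM-CSF, although Gnb1, a G protein subunit, was 1.36-fold higher with TNF (SE 0.05 in log2, edgeR adjusted p 5.5e-09), under the fold threshold. In adult microglia 1 rose, Nup85 (log2 0.76, SE 0.08, edgeR adjusted p 1.4e-05), also known as a partner of CCR2, and 2 fell, Arrb1 and Pik3cg (a kinase of chemotaxis, log2 -0.83, SE 0.07, edgeR adjusted p 2.1e-06). In brain tissue 1 of 9 rose, Rac2 (log2 1.31, SE 0.19, edgeR adjusted p 0.00037), a GTPase of blood cells. The list medians were 0.10, 0.08, -0.01 and 0.07 in the same order, against medians of -0.03, -0.04, 0.01 and 0.00 over all genes.

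Of 19 regulators of chemokine transcription, 9 rose and 1 fell with TNF, among them Nfkbia, the NF-kappa B inhibitor and target (log2 2.01, SE 0.07, edgeR adjusted p 2.1e-22), and Jun, which fell (log2 -0.69, SE 0.13, edgeR adjusted p 7.3e-05). With GM-CSF 1 rose, Cebpb (log2 1.04, SE 0.08, edgeR adjusted p 1.0e-12), and 8 fell, among them Nfkb1 (log2 -0.82, SE 0.14, edgeR adjusted p 2.7e-05) as well as Relb, Irf1 and Tnfaip3. The list median was 0.17 with TNF and -0.40 with GM-CSF. With LPS in adult microglia 8 rose and 1 fell (median 0.52), with Stat3 (log2 0.76, SE 0.07, edgeR adjusted p 3.2e-06) and Nfkb1 (log2 -0.94, SE 0.07, edgeR adjusted p 1.1e-06) having the smallest p in each direction. In brain tissue 5 rose and 0 fell (median 0.41). Cebpb, a regulator of myeloid genes, was called higher in each of these 4 comparisons, 2 of which share their medium libraries.

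Of 7 genes that control the decay of chemokine mRNA, 0 rose and 1 fell with TNF, Zfp36l2 (log2 -1.20, SE 0.11, edgeR adjusted p 1.1e-11), and 0 rose and 1 fell with GM-CSF, Zfp36 (log2 -0.68, SE 0.09, edgeR adjusted p 3.7e-07), which encodes tristetraprolin, a protein that marks such mRNAs for decay. With LPS 1 rose, Zc3h12a (an RNase), in adult microglia and in brain tissue, and 0 fell. The medians were -0.15, -0.17, 0.32 and 0.39.

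Other CC chemokines gave the frame for these changes. Of 15, 7 were tested in slices, and 2 rose and 0 fell with TNF, Ccl9 and Ccl5 (a chemokine that attracts T cells, log2 4.90, SE 0.41, edgeR adjusted p 3.0e-11), while with GM-CSF 2 rose, Ccl9 and Ccl6 (log2 2.19, SE 0.19, edgeR adjusted p 2.3e-10), and 0 fell. With LPS in adult microglia Ccl5 rose (log2 5.03, SE 0.64, edgeR adjusted p 0.00050) and 4 of 8 fell, among them Ccl6 (2.83-fold lower, SE 0.07 in log2, edgeR adjusted p 5.4e-08), where 1691 of all 12987 genes were called lower. In brain tissue Ccl5 alone of 5 rose (log2 4.43, SE 0.65, edgeR adjusted p 0.00089). The medians were 0.41, 0.32, -0.36 and 0.01. Of the 3 genes that flank the members on chromosome 11, 0 passed the low-count filter in slice or adult microglia. Whether they changed with the members there could therefore not be tested. In brain tissue 2 were tested, where 0 members passed the filter. Ccl1, the nearest chemokine gene, had 0 reads in 8 of 9 medium, 10 of 11 TNF and 8 of 9 GM-CSF libraries and at most 2 reads in adult microglia, and in brain tissue Asic2 and Tmem132e, the other flanking genes, had log2 changes of 0.01 and -0.13 and were not called (edgeR adjusted p 0.94 and 0.43).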

How the data were processed

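RNA sequencing of 45 samples was analysed from 3 tables. For slice microglia the authors deposited whole-number counts per gene (per the submitters' processing notes STAR 2.7.0a and featureCounts of Subread 1.6.4, mm10), from 75-base single reads. For adult microglia and brain tissue the authors deposited expected counts, rounded here, from 50-base reads (mm10; aligner not given in the sources used here). Whether strand was used is not given. Spike-in rows of the brain table (92, all at 0 counts) were left out, and 0 per-sample columns lacked a sample.

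The quasi-likelihood F test in edgeR 4.0.16 compared the groups (R 4.3.3; TMM; minimum count 10, minimum total 15; Benjamini-Hochberg over all genes), fitted on the 29 slice libraries together and on each in vivo table. Genes with an adjusted p under 0.05 and a fold change over 1.5, the thresholds of the paper's methods, were called. Standard errors are the log2 fold change over the square root of F, and 95% intervals span 1.96 of them; DESeq2 1.42.0 and limma-voom (limma 3.58.1) were alternatives. The script recovered most of the changed genes in data simulated from the slice counts for TNF against medium, with low-count genes left out. The adult and brain counts were not simulated. Transcripts came from GENCODE M21 and were aligned with MAFFT 7.526; ratio and correlation tests used scipy 1.17.1 and 100000 resamples for 11 libraries.

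The members and gene lists were chosen with earlier results of these data known. Text names the members, the 3 non-members most correlated with Ccl2, Ccl7 and Ccl12, Ccr2, Ccl1 and the list gene of smallest p in each direction; others in a count of called genes were named after their values were seen. Some list genes are not reported here. The labels do not tie libraries to separate cultures or animals. The paper states that the in vivo LPS samples came from independent mice. For the slices it gives pools of 2 to 3 separately treated slices, gathered over several independent experiments. Which experiment each slice library came from is not given, so the p-values measure the spread between libraries, which in slices may be partly technical. No library duplicated another (chi-square per degree of freedom 1.80 to 39.5 within groups). Intervals and limits cover counting error or library spread only, and reads carry no molecular identifiers.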

Additional observations from a re-analysis of the deposited data

Results flagged for a closer look

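Of 26 sets of member values in groups of 4 to 10 libraries, 2 held a library far from the rest by Dixon's ratio, where chance flags about 1 in 20. Ccl7 in medium replicate 3 (title code 1A) was at 12.4 CPM, on 104 reads, against 2.28 to 6.59 CPM in the other 8 medium libraries (ratio 0.573). The same library was not the highest of its group in Ccl2 or Ccl12 but was high there too. It held 80.5 CPM of Ccl2 and 880 of Ccl12, where the group maxima were 84.8 and 1016. Ccl12 in untreated brain replicate 3 was at 0.310 CPM against 0.194 to 0.209 in the others (ratio 0.874), a difference of 3 reads against 2.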

How the results depend on the processing

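The calls of Ccl2, Ccl7 and Ccl12 with TNF, GM-CSF and LPS in adult microglia kept their direction and side of the threshold under every alternative that tested them (other scaling, filters, DESeq2 and limma-voom in all 3, title codes in slices, and single libraries left out in adult microglia only). The stricter filter did not test Ccl8 in slices or Ccl7 in adult microglia. In brain tissue 0 members were called, but 2 without a low-count filter, and 0 to 1 when 1 library was left out, the 1 being Ccl12. The slice numbers did not pair libraries (correlations of same-numbered libraries -0.04 to 0.18, 8 of 27 over 0.1). With the replicate block 4 members were called with TNF and 3 with GM-CSF, and it changed no call.

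Within codes 1A and 1B, the difference between TNF and GM-CSF in the ratio of Ccl2 to Ccl7 (-0.29) or of Ccl2 to Ccl12 (-0.19) missed the threshold, and within codes 2A and 2B it passed in that of Ccl12 to Ccl8 (-1.71). Leaving out 1 adult library moved the log2 difference in the ratio of Ccl2 to Ccl12, not past the threshold in any fit, between -0.45 and 0.027, with 0.027 without LPS replicate 2 and 0.0059 without PBS replicate 4. Without the 2 outer libraries, r was 0.83 for Ccl2 and Ccl12 in medium, 0.42 and 0.65 for Ccl2 with Ccl7 and Ccl7 with Ccl12 with TNF, and -0.11 and -0.59 for Ccl2 with Ccl12 and Ccl7 with Ccl12 with GM-CSF. The cause was not tested.

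Scaling by total counts in place of TMM moved the median of all genes between TNF and GM-CSF from -0.02 to -0.19 and the genes called higher and lower from 933 and 900 to 694 and 1514, and with GM-CSF against medium from 548 and 674 to 814 and 460. No member changed its call there, whereas Zfp36 was no longer called with GM-CSF.

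Depth limits Ccl8, Ccl11 and all members in brain tissue, whose libraries held 0 to 58 reads of each.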
